A study of Mus musculus with 9 samples.

Results

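The genes described are subunits of the transcription factor NF-kB, without Rel, and regulators that feed back on it. These are Rela, Nfkb1, Relb, Nfkb2, Nfkbia, Nfkbie, Nfkbiz, Bcl3, Tnfaip3 and Birc3. They were chosen by name, and all 10 were found among the 26139 gene symbols of a table of FPKM values (fragments counted per gene, scaled by gene length and by the library's total). The table holds bulk RNA sequencing of kidneys from 3 groups of mice with 3 libraries each. GQYS kidneys came from Itgam-IRES-hCD89 mice, which carry human CD89, an Fc receptor for IgA, as a knock-in at Itgam (the CD11b locus), and which received Gui-qi-yi-shen granules (GQYS), a herbal medicine, by gavage each day for 5 months. IgAN kidneys came from mice with the same knock-in that received saline by gavage, as a model of IgA nephropathy. WT kidneys came from C57/BL6 mice without the knock-in that also received saline; the titles call both saline groups untreated. The ages are not given in the labels. The knock-in places CD89 under the control of Itgam, so it is driven in cells that use Itgam, chiefly myeloid cells. The labels do not tie libraries to individual mice, so each p-value rests on the spread between libraries, which may be technical in part.

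NF-kB proteins act as dimers. In resting cells IkB proteins hold the dimers in the cytoplasm, and signals from tumour necrosis factor, interleukin-1 or Toll-like receptors activate the IkB kinase complex, which marks IkB for destruction and frees dimers of p65 and p50. A slower arm, driven by receptors such as the lymphotoxin beta receptor, cuts the p100 precursor to p52, which pairs with RelB. Several genes of the pathway are themselves induced by NF-kB, among them those of IkB alpha and A20, so their mRNA is commonly read as a sign of recent pathway activity. In kidney, the pathway is known to act in tubular, glomerular and immune cells during inflammation.

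The promoters are shown because kappaB sites are the DNA elements that NF-kB dimers bind, and several of these genes are known targets of the factor. RefSeq gave promoter windows (GRCm38.p6, 250 bases before to 50 after the transcription start) for 7 of the genes. The kappaB consensus, a 10-base element, was searched on both strands. It was present in 5 of these 7 genes, Nfkb2, Nfkbia, Nfkbie, Bcl3 and Tnfaip3, and not in these windows of Rela and Birc3. Of all 32851 windows 8.46% held it, as did 11.2% of the 19231 genes of the table that have a window. In the following stretches of 30 bases, capitals mark the match.
Nfkb2, plus strand, chr19:46304688-46304717: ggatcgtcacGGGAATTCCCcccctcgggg
Nfkb2, plus strand, chr19:46304716-46304745: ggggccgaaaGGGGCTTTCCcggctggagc
Nfkb2, plus strand, chr19:46305695-46305724: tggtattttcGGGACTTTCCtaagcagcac
Bcl3, minus strand, chr7:19822734-19822763: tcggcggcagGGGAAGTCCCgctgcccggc
Tnfaip3, minus strand, chr10:19015516-19015545: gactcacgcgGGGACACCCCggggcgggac
Tnfaip3, minus strand, chr10:19015403-19015432: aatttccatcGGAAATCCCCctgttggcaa
The first Nfkb2 match reads as the consensus on both strands, begins 39 bases before the start and overlaps a further match shifted by 1 base. The second Nfkb2 match begins 11 bases before the same start. The third lies in the overlapping windows of 2 later Nfkb2 starts, of which the earlier holds 1 more match that is not printed. The Bcl3 match begins at position 3, with the start counted as 1, and the Tnfaip3 matches begin 125 and 12 bases before their start. The Bcl3 match and the first Tnfaip3 match also read as the consensus on both strands. The second Tnfaip3 match reads as the consensus only on the strand opposite to that printed.

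Nfkbia and Nfkbie, the genes of the cytoplasmic inhibitors IkB alpha and IkB epsilon, are shown with the 250 bases before their starts, since these stretches overlapped no annotated exon.
Nfkbia, minus strand, chr12:55492648-55492897: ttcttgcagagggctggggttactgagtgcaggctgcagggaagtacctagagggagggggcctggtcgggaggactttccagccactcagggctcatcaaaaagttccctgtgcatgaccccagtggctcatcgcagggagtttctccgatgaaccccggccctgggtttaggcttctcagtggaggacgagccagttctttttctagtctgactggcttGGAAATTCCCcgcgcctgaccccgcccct
Nfkbie, plus strand, chr17:45555450-45555699: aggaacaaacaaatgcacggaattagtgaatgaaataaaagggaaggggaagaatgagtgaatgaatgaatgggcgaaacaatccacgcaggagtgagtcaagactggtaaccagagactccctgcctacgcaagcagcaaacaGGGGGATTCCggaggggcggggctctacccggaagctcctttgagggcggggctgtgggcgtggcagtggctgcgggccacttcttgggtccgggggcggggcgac
The Nfkbia match, which reads as the consensus only on the opposite strand, began 29 bases and the Nfkbie match 106 bases before the start. A match is a string of letters and does not show that a factor binds there. Coordinates and sequences are of GRCm38.p6, while the submitters' processing notes name GRCm39 for the expression values, and no coordinate was converted.

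The steps of the FPKM values gave back whole reads, 30564947 to 38161564 per library, and the 10 genes had between 80 reads (Nfkbie in GQYS replicate 1, exact Poisson 95% interval 63.4 to 99.6, counting error only) and 1470 reads (Rela in IgAN replicate 1) per library. The tissue label held in all 9 libraries: the proximal tubule phosphate transporter Slc34a1 lay between 1437 and 1889 FPKM. Itgam itself was low, at 0.0283 to 0.143 FPKM in GQYS, 0.172 to 0.433 FPKM in IgAN and 0.340 to 0.716 FPKM in WT, with GQYS wholly below both other groups, and it does not check the genotype. WT replicate 1, IgAN replicate 1 and WT replicate 3 each stood apart from the rest in some genes. WT replicate 1 had Egr1, an immediate-early gene, at 71.0 FPKM, against 1.22 to 8.49 in the other 8 libraries, and 18.6% mitochondrial reads. IgAN replicate 1 had the tubular injury marker Havcr1 at 43.8 FPKM, against 0.116 to 1.79 in the others. WT replicate 3 had the adipocyte marker Cfd at 11.4 FPKM, against at most 0.158 in the others. Its urothelial marker Upk1b was at 2.91 FPKM, against at most 0.589 in the others. This library was also the lowest of the WT libraries for 5 of the 10 genes. Member log2 changes without WT replicate 1 or IgAN replicate 1 are given where they moved by over 1.5 times in a comparison with IgAN. The changes of Nfkbia and Nfkbiz in IgAN against WT also fell without WT replicate 3, as given below.

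Across the 10 genes, the mean level was higher in IgAN than in WT for all of them, with ratios of 1.27 (Nfkbia) to 2.67 (Bcl3) and a median of 1.66. It was lower in GQYS than in IgAN for all of them, at 0.451 (Relb) to 0.801 (Nfkb1) of the IgAN mean with a median of 0.572. Of all 11617 tested genes, 54.7% had a positive log2 change in IgAN against WT and 48.4% a negative one in GQYS against IgAN. These comparisons share the IgAN libraries. None of the changes passed the test that takes in all genes. In a limma fit of log2(FPKM + 1) over all 9 libraries, 0 of the 9 members tested passed a Benjamini-Hochberg adjusted p of 0.05 in IgAN against WT, in GQYS against IgAN or in GQYS against WT, and voom on the recovered reads also called 0 in each. Relb was not tested there, because it reached the required 1 FPKM in 2 libraries instead of 3. The other 9 reached it in at least 4 of the 6 GQYS and WT libraries, so they did not enter through IgAN alone.

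Of all 11617 tested genes, 0.301% passed as higher and 0.0516% as lower in IgAN against WT, 0.0344% as higher and 0.164% as lower in GQYS against IgAN, and 0% in either direction in GQYS against WT. At an unadjusted p under 0.05, 6 of the 9 members were higher in IgAN than in WT, against 6.97% of all tested genes. By the same count 5 of 9 were lower in GQYS than in IgAN, against 4.9% of all tested genes, and 0 of 9 differed between GQYS and WT, where 3.33% were higher and 1.1% lower. The FPKM ranges of the groups did not overlap for 7 of the 10 genes, higher in IgAN than in WT (6 of the 9 tested, against 9.18% of all tested genes), and for 9 of 10, lower in GQYS than in IgAN (8 of the 9 tested, against 9.29%). For GQYS and WT, 2 of the 9 tested had ranges apart, both higher in GQYS, against 7.14% of all tested genes. Genes of one pathway can move together, so these counts are not independent observations.

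**Figure D1:**
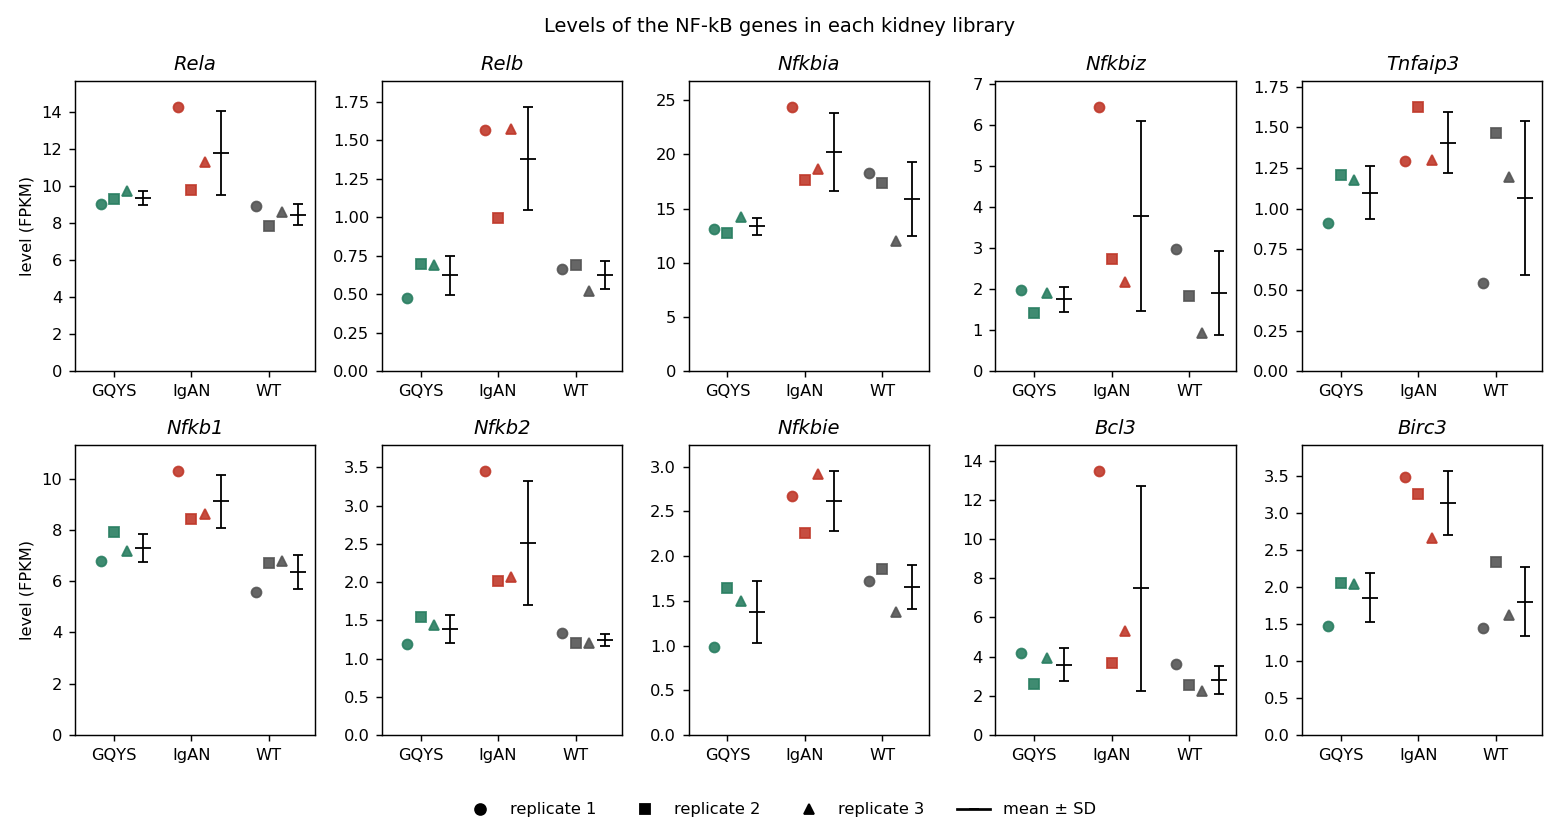
FPKM of each of the 10 NF-kB genes (y axis, starting at 0) in the GQYS, IgAN and WT libraries (x axis). Symbols are single libraries by replicate number, and bars give the mean ± SD of 3 libraries. The IgAN libraries lie above all GQYS libraries for every gene but Bcl3, and IgAN replicate 1 is far above the others for Bcl3 (13.5 FPKM) and Nfkbiz (6.43 FPKM).

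The subunits of the p65-p50 arm were the most abundant members after Nfkbia, with modest differences between groups. Rela, which encodes p65 with its transactivation domain, was at 9.03, 9.31 and 9.76 FPKM in GQYS, at 14.3, 9.81 and 11.3 FPKM in IgAN and at 8.95, 7.82 and 8.62 FPKM in WT. No ranges overlapped, with IgAN on top and WT at the bottom, although IgAN replicate 2 was only just above the highest GQYS library. The log2 change of Rela was 0.42 ± 0.13 (SE) in IgAN against WT (limma adjusted p = 0.260) and -0.29 ± 0.13 in GQYS against IgAN (limma adjusted p = 0.487). Without IgAN replicate 1 the second was -0.15.

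Nfkb1, which encodes the p105 precursor of p50, gave 6.80, 7.90 and 7.19 FPKM in GQYS, 10.3, 8.41 and 8.63 FPKM in IgAN and 5.59, 6.70 and 6.77 FPKM in WT. Again the 3 groups were apart, with GQYS between the others. Its log2 change was 0.46 ± 0.12 in IgAN against WT (limma adjusted p = 0.165) and -0.28 ± 0.12 in GQYS against IgAN (limma adjusted p = 0.441). Rela and Nfkb1 were the only members with GQYS wholly above WT. Those differences of 0.13 (95% interval -0.16 to 0.43) and 0.18 (-0.09 to 0.44) on the log2 scale did not pass (limma adjusted p = 0.999 for both).

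The genes of the RelB-p52 arm had lower levels than those of the p65-p50 arm, and their ratios of IgAN to WT and of GQYS to IgAN were farther from 1. Nfkb2, the gene of the p100 precursor of p52, stood at 1.18, 1.54 and 1.43 FPKM in GQYS, at 3.45, 2.01 and 2.07 FPKM in IgAN and at 1.33, 1.20 and 1.20 FPKM in WT. All IgAN libraries were above the other 6, with IgAN replicate 1 the highest, and GQYS overlapped WT. The mean was 2.51 ± 0.815 FPKM in IgAN and 1.24 ± 0.0776 FPKM in WT (SD, n = 3 each), a 2.02-fold difference. On the log2 scale the change was 0.62 ± 0.15 (SE), with the smallest adjusted p of the members in this comparison (limma adjusted p = 0.153). In GQYS against IgAN it was -0.53 ± 0.15 (limma adjusted p = 0.235), and -0.35 without IgAN replicate 1.

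Relb, the gene of the partner of p52, had the lowest mean of the 10 genes in each group. It was at 0.476, 0.698 and 0.693 FPKM in GQYS, at 1.57, 0.997 and 1.58 FPKM in IgAN and at 0.663, 0.692 and 0.520 FPKM in WT. IgAN lay wholly above both other groups, which covered nearly the same range. Its mean in IgAN was 2.21-fold that in WT, and its mean in GQYS was 0.451 of that in IgAN, the lowest such ratio of the 10 genes. The exact two-sided permutation p was 0.1 for both comparisons, the smallest that 3 against 3 libraries allow. A limma fit without the filter, on 23797 genes, gave log2 changes of 0.54 ± 0.12 and -0.55 ± 0.12 (SE; limma adjusted p = 0.211 and 0.212).

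**Figure D2:**
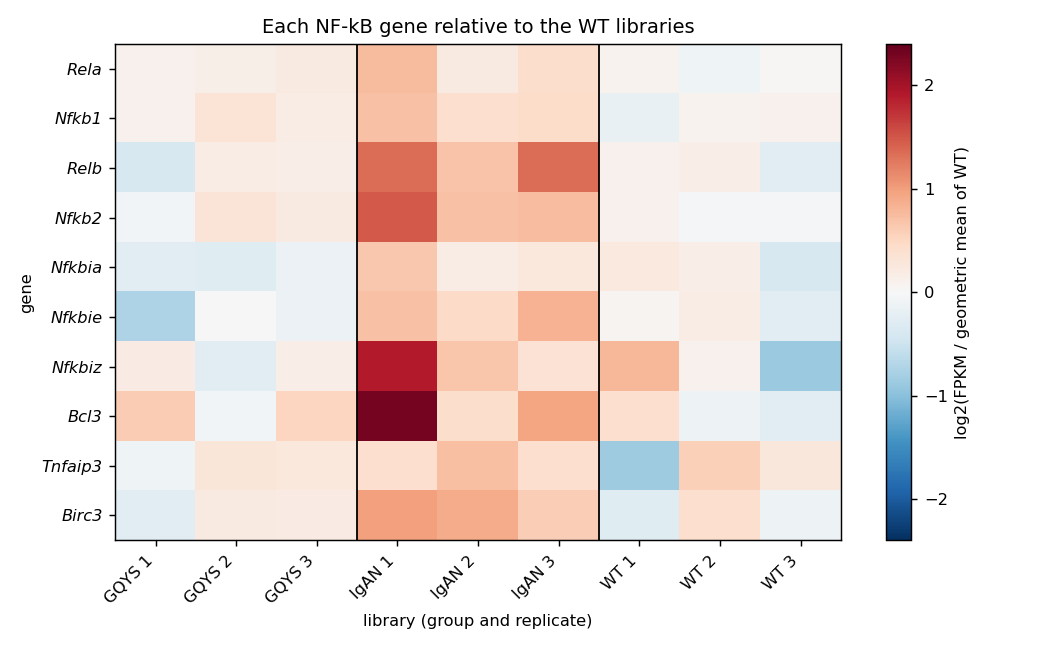
Colour gives log2 of each FPKM value over the geometric mean of the 3 WT libraries for the 10 NF-kB genes (rows) in the 9 libraries (columns). Red is above WT and blue below; the IgAN columns are red throughout, with Bcl3 and Nfkbiz in IgAN replicate 1 the darkest, while the GQYS columns hold both colours.

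Of the cytoplasmic inhibitors, Nfkbia was the most abundant member in every group. Its values were 13.1, 12.7 and 14.2 FPKM in GQYS, 24.3, 17.7 and 18.6 FPKM in IgAN, and 18.3, 17.3 and 12.02 FPKM in WT. GQYS was wholly below IgAN, while WT spread over the ranges of both and WT replicate 1 exceeded IgAN replicate 2. The log2 change was 0.34 ± 0.17 (SE) in IgAN against WT (limma adjusted p = 0.550) and -0.55 ± 0.17 in GQYS against IgAN (limma adjusted p = 0.266). Without IgAN replicate 1 the first was 0.20, and the mean in IgAN was 1.14-fold that in WT instead of 1.27-fold. Without WT replicate 3, the lowest WT library, the first was 0.16. Between GQYS and WT the log2 change was -0.21, with a 95% interval of -0.59 to 0.16.

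Nfkbie, whose product also retains dimers in the cytoplasm, was present at 0.979, 1.64 and 1.49 FPKM in GQYS, at 2.67, 2.26 and 2.92 FPKM in IgAN and at 1.73, 1.86 and 1.38 FPKM in WT. The IgAN libraries were above the other 6, and GQYS and WT overlapped. Mean levels were 1.37 ± 0.348 FPKM in GQYS and 2.61 ± 0.333 FPKM in IgAN (SD, n = 3 each). This log2 change of -0.62 ± 0.14 (SE) had the smallest adjusted p of the members in GQYS against IgAN (limma adjusted p = 0.147). In IgAN against WT the change was 0.45 ± 0.14 (limma adjusted p = 0.263).

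The nuclear IkB-like regulators had the largest standard errors, and with all libraries the largest log2 changes of the tested members in IgAN against WT and in GQYS against IgAN. Without IgAN replicate 1 this order was lost for both genes in GQYS against IgAN, and for Nfkbiz in IgAN against WT. In the former comparison Nfkbie (-0.60), Birc3 (-0.47), Nfkbia (-0.41) and Nfkb2 (-0.35) were then farther from 0. Bcl3, which binds p50 and p52 dimers on DNA, was at 4.18, 2.62 and 3.92 FPKM in GQYS, at 13.5, 3.69 and 5.31 FPKM in IgAN and at 3.62, 2.52 and 2.26 FPKM in WT. Only IgAN replicate 1 stood far out, and IgAN replicate 2 lay within the GQYS range and close to the highest WT library. The log2 change in IgAN against WT was 1.0 ± 0.35 (SE; limma adjusted p = 0.324), and without IgAN replicate 1 it was 0.53 and the fold difference 1.61 instead of 2.67. In GQYS against IgAN it was -0.74 ± 0.35 (limma adjusted p = 0.526), and -0.27 without that library.

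Nfkbiz, the gene of IkB zeta, a nuclear cofactor for secondary inflammatory genes, showed 1.97, 1.41 and 1.90 FPKM in GQYS, 6.43, 2.73 and 2.18 FPKM in IgAN, and 2.98, 1.83 and 0.922 FPKM in WT. WT replicate 1 exceeded both lower IgAN libraries, so those groups overlapped, and GQYS was below IgAN. Its log2 change was 0.68 ± 0.33 (SE) in IgAN against WT (limma adjusted p = 0.533) and -0.70 ± 0.33 in GQYS against IgAN (limma adjusted p = 0.512). Without IgAN replicate 1 these were 0.31 and -0.33, and the mean in IgAN was 1.29-fold that in WT instead of 1.98-fold. The change in IgAN against WT was also smaller without WT replicate 3, the lowest WT library.

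The ubiquitin enzymes differed from each other. Birc3, the gene of the ubiquitin ligase cIAP2 of TNF receptor complexes, read 1.47, 2.05 and 2.03 FPKM in GQYS, 3.48, 3.25 and 2.66 FPKM in IgAN, and 1.45, 2.33 and 1.62 FPKM in WT. The IgAN libraries were above all others without 1 of them dominating, and GQYS and WT covered nearly the same values. The log2 change was 0.57 ± 0.15 (SE) in IgAN against WT (limma adjusted p = 0.178) and -0.54 ± 0.15 in GQYS against IgAN (limma adjusted p = 0.221).

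Tnfaip3, which encodes A20, the ubiquitin-editing brake on the pathway, had 0.911, 1.20 and 1.18 FPKM in GQYS, 1.29, 1.62 and 1.30 FPKM in IgAN, and 0.541, 1.46 and 1.19 FPKM in WT. WT replicate 1 was the lowest of the 9 libraries and WT replicate 2 the second highest, so WT spanned nearly the whole range, while GQYS was below IgAN. With all libraries it had the smallest change in log2(FPKM + 1) of the tested members in both comparisons with IgAN. It was 0.24 ± 0.17 (SE) in IgAN against WT (limma adjusted p = 0.679) and -0.20 ± 0.17 in GQYS against IgAN (limma adjusted p = 0.795). That scale understates changes of low genes, and ratios of mean FPKM gave another order. In IgAN over WT, Nfkbia (1.27) was closer to 1 than Tnfaip3 (1.32). In GQYS over IgAN, Nfkb1 (0.801) and Rela (0.795) were closer to 1 than Tnfaip3 (0.781). Without IgAN replicate 1 the log2 changes of Tnfaip3 were 0.28 and -0.23. Nfkbia (0.20) in the first comparison and Rela (-0.15) and Nfkb1 (-0.20) in the second were then closer to 0.

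**Figure D3:**
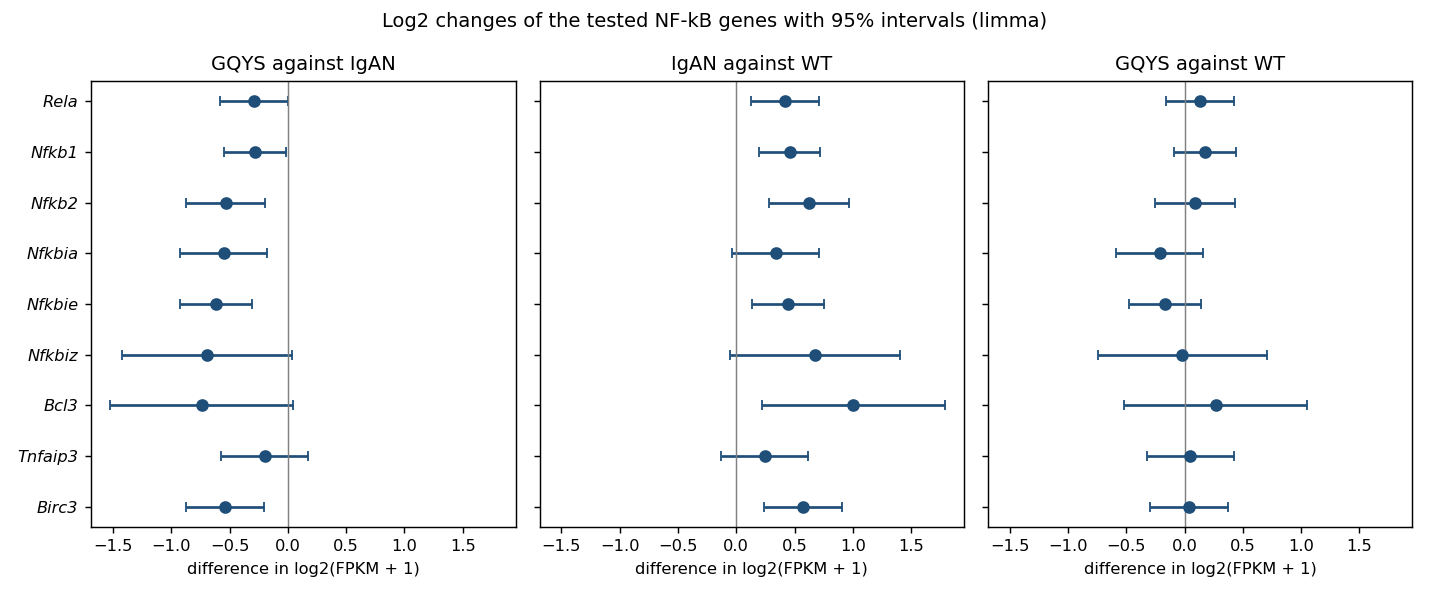
Differences in log2(FPKM + 1) with 95% intervals from limma (x axis) for the 9 tested NF-kB genes (rows) in GQYS against IgAN, IgAN against WT and GQYS against WT. Points lie left of 0 in the first panel, right of 0 in the second and on both sides in the third; intervals are not adjusted for the number of genes tested.

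Between GQYS and WT the members lay on both sides of 0. Mean levels were higher in GQYS for 6 genes and lower for 4, with ratios from 0.829 (Nfkbie) to 1.28 (Bcl3), where 59.3% of all tested genes had a positive log2 change, and 8 of 10 ranges overlapped. The log2 changes of the tested members ran from -0.21 to 0.27, with a median of 0.05, against 0.03 over all tested genes. The widest intervals were those of Bcl3 (-0.52 to 1.05) and Nfkbiz (-0.75 to 0.71), which leave room for differences as large as those between IgAN and WT. For Birc3 and Tnfaip3 the change of 0.03 and 0.05 turned to -0.02 for each under quantile normalization.

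IgAN replicate 1 was the highest of the 9 libraries for 7 of the 10 genes (Rela, Nfkb1, Nfkb2, Nfkbia, Nfkbiz, Bcl3 and Birc3). IgAN replicate 3 led for Relb and Nfkbie and IgAN replicate 2 for Tnfaip3, so the top library was an IgAN library for all 10. Without IgAN replicate 1, the remaining IgAN libraries were still wholly above WT for Rela, Nfkb1, Relb, Nfkb2, Nfkbie, Bcl3 and Birc3, with a median ratio of 1.47 over the 10 genes; 12.5% of all tested genes then had IgAN wholly above WT. GQYS was still wholly below IgAN for 9 genes, all but Bcl3, with a median ratio of 0.727, where 12.7% of all tested genes were. WT replicate 1 was the highest WT library for Nfkbia and Nfkbiz and the lowest for Tnfaip3, the genes whose IgAN and WT ranges overlapped. Without it the log2 change in IgAN against WT was 0.93 for Nfkbiz, 0.44 for Nfkbia and 0.05 for Tnfaip3 (limma adjusted p = 0.185, 0.207 and 0.848).

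The order of the levels was alike in the groups. FPKM corrects for gene length, so levels can be set beside each other. Nfkbia was first in all groups, with means of 13.4 ± 0.772 FPKM in GQYS, 20.2 ± 3.60 FPKM in IgAN and 15.9 ± 3.37 FPKM in WT (SD, n = 3 each), followed by Rela, Nfkb1 and Bcl3. Relb had the lowest mean, at 0.622 ± 0.127, 1.38 ± 0.332 and 0.625 ± 0.0919 FPKM in GQYS, IgAN and WT, but its range was apart from that of Tnfaip3, the next lowest, in GQYS and overlapped it in IgAN and WT. In GQYS and WT the first 4 genes were separated by ranges that did not overlap, whereas in IgAN the ranges of Rela and Nfkb1 overlapped, as did those of Nfkb1 and Bcl3. The genes in the middle (Birc3, Nfkbiz, Nfkbie, Nfkb2) were not separated by their ranges from their neighbours in the order, except that Birc3 was below Bcl3 in GQYS, Nfkbie above Nfkb2 in WT and Nfkb2 above Tnfaip3 in IgAN.

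Ratios within a library do not depend on its scaling and are given as a description. The FPKM of Nfkbia over that of Rela, the inhibitor over its main target, was 1.46, 1.37 and 1.46 in GQYS, 1.71, 1.80 and 1.65 in IgAN, and 2.04, 2.22 and 1.40 in WT. GQYS was wholly below IgAN, and WT overlapped GQYS and extended above IgAN, with the lowest of the 9 ratios in GQYS replicate 2. Nfkb2 over Nfkb1 was 0.174, 0.196 and 0.200 in GQYS, 0.336, 0.240 and 0.240 in IgAN, and 0.239, 0.179 and 0.177 in WT, so WT replicate 1 came close to the lower IgAN libraries. Relb over Rela was wholly higher in IgAN (0.110, 0.102 and 0.140) than in GQYS (0.0528, 0.0749 and 0.0710) and in WT (0.0741, 0.0884 and 0.0603).

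**Figure D4:**
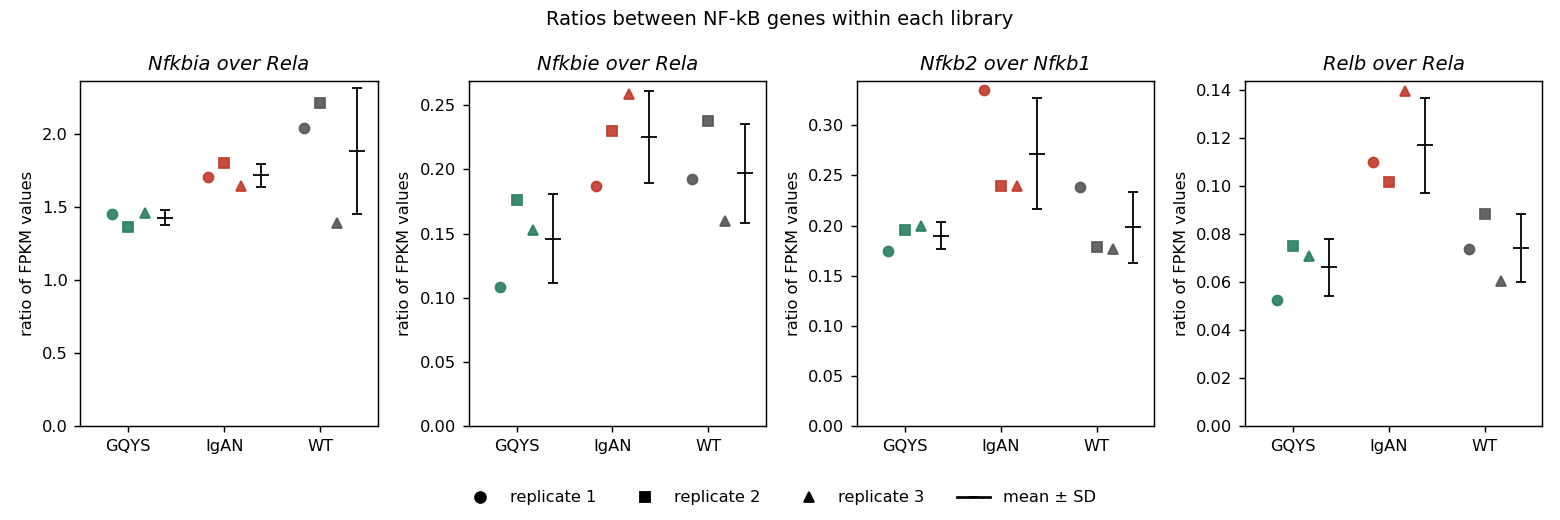
Ratio of the FPKM values of gene pairs within each library (y axis, starting at 0) for GQYS, IgAN and WT (x axis). Symbols are libraries by replicate number, and bars give the mean ± SD of 3 libraries. Relb over Rela is above 0.1 in the IgAN libraries and below 0.09 in the other 6.

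The genes whose profile over the 9 libraries was most like that of the members were found by Pearson correlation with the mean of the standardized log2(FPKM + 1) profiles of the 9 tested members. As a description over libraries that share their groups, the closest non-members were Samd14 (r = 0.99), Trib1 (0.99), Osmr, the oncostatin M receptor (0.98), Gsn, which encodes the actin-severing protein gelsolin (0.98), and Klf6, an injury-responsive transcription factor (0.98). Osmr was at 2.4 ± 0.103 FPKM in GQYS, 5.92 ± 2.20 FPKM in IgAN and 1.89 ± 0.330 FPKM in WT (SD, n = 3 each), and Trib1, a pseudokinase gene, at 3.09 ± 0.416, 6.68 ± 2.66 and 3.0 ± 0.213 FPKM. Both were highest in IgAN replicate 1. Samd14 was at 0.867 ± 0.0684 FPKM in GQYS, 1.32 ± 0.200 FPKM in IgAN and 0.835 ± 0.0794 FPKM in WT. It met the filter through the IgAN libraries alone, so that its place in this ranking comes in part from the filter. Among the members themselves the correlation with the mean profile was 0.97 for Nfkb2 and 0.47 for Tnfaip3, the highest and the lowest.

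Other genes of the pathway were taken from lists by role, 106 genes of which 77 were tested. Of these 4 rose in IgAN against WT and 4 fell in GQYS against IgAN, in both comparisons Csf1, Vcam1, Icam1 and Ccl2 of the target gene list, and 0 passed in GQYS against WT. The median log2 change of the 77 was 0.14 in IgAN against WT and -0.06 in GQYS against IgAN, where all tested genes had medians of 0.02 and 0.01. That of the 9 tested members was 0.46 and -0.54.

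Among 19 tested target genes, 17 had a positive log2 change in IgAN against WT and 17 a negative one in GQYS against IgAN, with medians of 0.56 and -0.54. Of these, Cxcl1 met the filter through the IgAN libraries alone, so its direction in both counts was fixed in advance. Csf1, the macrophage growth factor, was at 1.85, 2.09 and 2.52 FPKM in GQYS, at 7.60, 6.46 and 7.29 FPKM in IgAN and at 2.64, 2.58 and 2.37 FPKM in WT. All IgAN libraries were above the other 6, which overlapped. The log2 change was 1.20 in IgAN against WT (limma adjusted p = 0.0019) and -1.37 in GQYS against IgAN (limma adjusted p = 0.0010), and both calls held without each library in turn.

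The other 3 also had IgAN above the other 6 libraries. Vcam1, an adhesion gene for leukocytes, was at 3.54, 3.13 and 3.75 FPKM in GQYS, at 8.43, 7.72 and 8.27 FPKM in IgAN and at 3.46, 3.82 and 2.43 FPKM in WT (log2 change 1.12 in IgAN against WT, limma adjusted p = 0.0107, and -1.03 in GQYS against IgAN, 0.0174). Icam1, likewise an adhesion gene, was at 8.34, 7.01 and 9.28 FPKM in GQYS, at 18.2, 16.1 and 18.1 FPKM in IgAN and at 8.96, 7.86 and 5.80 FPKM in WT (1.13, limma adjusted p = 0.0172, and -1.01, 0.0457). Ccl2, the monocyte chemokine MCP-1, was at 1.07, 0.691 and 0.871 FPKM in GQYS, at 7.71, 8.35 and 8.75 FPKM in IgAN and at 2.79, 1.49 and 0.321 FPKM in WT (2.0, limma adjusted p = 0.0292, and -2.31, 0.0167). These calls did not hold without each library. In IgAN against WT that of Vcam1 ended without IgAN replicate 3 (limma adjusted p = 0.0608), that of Icam1 without IgAN replicate 1, IgAN replicate 3 or WT replicate 2 (at most 0.102), and that of Ccl2 without any 1 library but WT replicates 1 and 3 (at most 0.137). In GQYS against IgAN those of Vcam1 and Ccl2 ended without any 1 of the GQYS or IgAN libraries (limma adjusted p at most 0.113 and 0.101), and that of Icam1 without these or WT replicate 2 (at most 0.161).

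The upstream parts of the pathway had no gene past the threshold. In the receptor list, 9 genes were tested, with medians of 0.34 in IgAN against WT and -0.31 in GQYS against IgAN, and the 2 smallest p in IgAN against WT were those of the pattern receptor gene Tlr2 (0.61, limma adjusted p = 0.153) and the TNF receptor gene Tnfrsf1a (0.55, 0.192). Tlr2 met the filter only with the help of the IgAN libraries. Il1b, the interleukin-1 beta gene, met it through the IgAN libraries alone, so that its presence among the 3 tested ligands comes from the group where it was high. It was at 0.695 ± 0.219 FPKM in GQYS, 1.92 ± 0.220 FPKM in IgAN and 0.710 ± 0.259 FPKM in WT (SD, n = 3 each; limma adjusted p = 0.0730 in IgAN against WT and 0.0946 in GQYS against IgAN). Tnfsf12, the TWEAK ligand gene, was next (log2 change 0.29 in IgAN against WT, limma adjusted p = 0.780), and 7 of the 10 ligand genes, the TNF gene among them, were under the filter.

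The 16 kinases had medians of 0.06 in IgAN against WT and -0.04 in GQYS against IgAN. Map3k14, the gene of the kinase NIK that starts the RelB-p52 arm, was at 2.82, 3.04 and 2.47 FPKM in GQYS, at 4.47, 2.74 and 3.53 FPKM in IgAN and at 2.30, 1.97 and 1.88 FPKM in WT. IgAN lay wholly above WT and overlapped GQYS (log2 change 0.57 in IgAN against WT, limma adjusted p = 0.162). Map3k8, the gene of the kinase TPL2 that is held by p105, had a log2 change of 0.51 in that comparison (limma adjusted p = 0.327), and it too met the filter only with the help of the IgAN libraries. The genes of the IkB kinase complex itself, Chuk, Ikbkb and Ikbkg, had log2 changes of -0.14, 0.18 and -0.11 in IgAN against WT (limma adjusted p = 0.853, 0.724 and 0.847); they were named after their values were seen.

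Of 14 tested adaptors and ubiquitin ligases, the smallest p belonged to Ticam1, the gene of the Toll-like receptor adaptor TRIF (log2 change 0.35 in IgAN against WT, limma adjusted p = 0.304), and Bcl10 (0.33, 0.453). Tnip1, which encodes a partner of A20, led the 14 tested other negative regulators, at 4.34 ± 0.232 FPKM in GQYS, 5.84 ± 0.456 FPKM in IgAN and 3.99 ± 0.126 FPKM in WT (SD, n = 3 each; limma adjusted p = 0.109 in IgAN against WT and 0.218 in GQYS against IgAN), followed by Zc3h12a, the gene of the RNase regnase-1 (0.42 in IgAN against WT, limma adjusted p = 0.380). The remaining IkB-family genes with a test, Nfkbib and Nfkbil1, had log2 changes of 0.06 and 0.14 in IgAN against WT (limma adjusted p = 0.942 and 0.878).

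**Figure D5:**
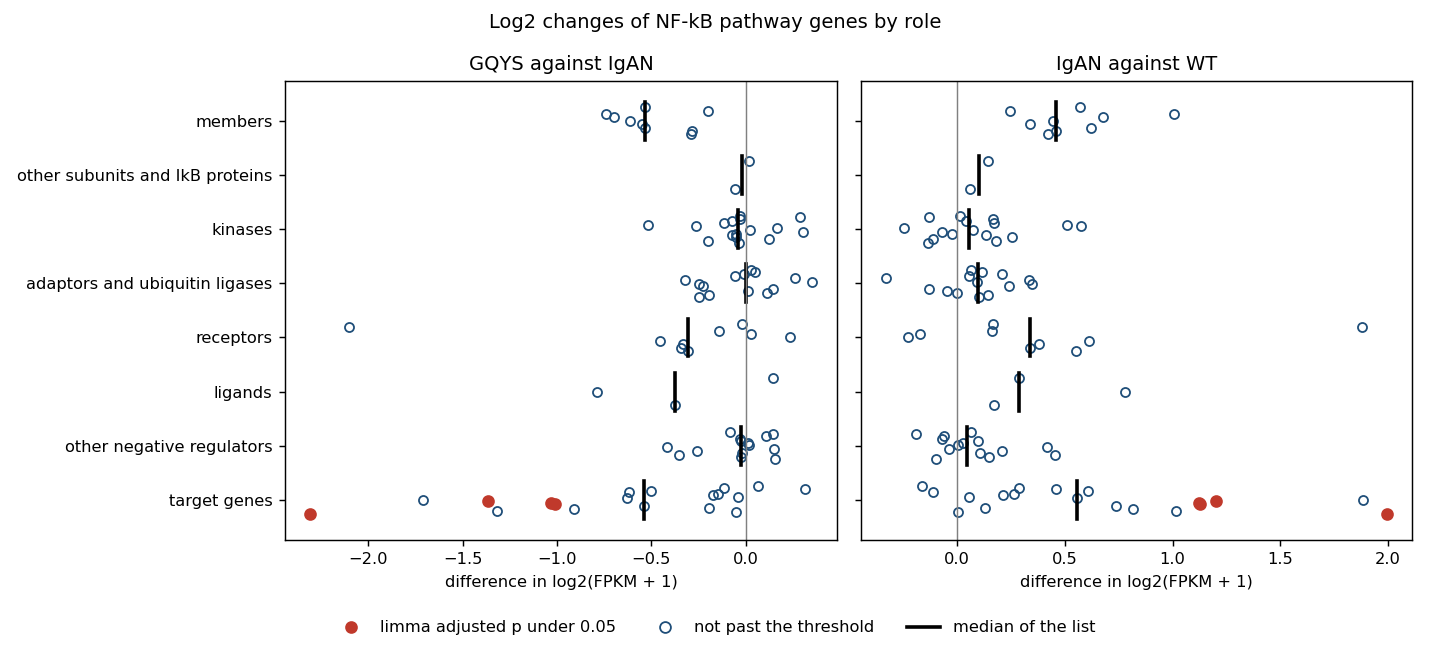
Difference in log2(FPKM + 1) (x axis) of the tested members and of the pathway genes by role (rows), in GQYS against IgAN and in IgAN against WT. Filled red points passed limma at an adjusted p of 0.05, open points did not, and black bars are list medians; the medians of members and targets are farther from 0 than those of kinases, adaptors and other negative regulators.

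Genes with the kappaB consensus in a promoter window were compared with the rest as a description. Of 9233 tested genes with a window, 1115 held a match, the matching members included. Their median log2 change was 0.03 in IgAN against WT, against 0.02 for the 8118 genes without a match, and 0.00085 against 0.0064 in GQYS against IgAN. IgAN ranges were wholly above WT for 11.6% of genes with a match and 8.84% of those without, and GQYS ranges wholly below IgAN for 11.5% and 8.99%. Past the threshold in IgAN against WT were 6 of the 1115 genes with a match, all higher, and 24 of the 8118 without, 20 of them higher. In GQYS against IgAN 4 genes with a match passed, all lower, and of those without a match 3 passed as higher and 9 as lower.

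Of the immune cell markers, the neutrophil list was wholly higher in IgAN than in GQYS and WT, the B cell list wholly lower, and the T cell list overlapped in all groups. In bulk kidney, fewer cells of a type and less RNA per cell cannot be told apart. The summed FPKM of 10 neutrophil markers was 2.54 to 3.69 in GQYS, 27.5 to 35.3 in IgAN and 1.30 to 3.71 in WT. Most of this was S100a8, S100a9 and Retnlg, and the other 7 summed to 0.340 to 0.480 in GQYS, 1.46 to 2.58 in IgAN and 0.297 to 0.420 in WT, with Retnlg, Mmp8, Ly6g, Ngp and Camp listed at 0 in at least 1 library. The tested markers S100a8, S100a9 and Retnlg passed as higher in IgAN than in WT and as lower in GQYS than in IgAN, but Retnlg met the filter through the IgAN libraries alone and so had to differ. The 10 macrophage markers, all tested, summed to 77.4 to 99.3 FPKM in GQYS, 115 to 179 in IgAN and 64.4 to 150 in WT, so that IgAN was above GQYS and overlapped WT, and 0 passed in any comparison. The 6 endothelial markers, all tested with 0 passing, summed to 97.9 to 109 FPKM in GQYS, 69.7 to 85.4 in IgAN and 76.4 to 93.1 in WT. This sum had GQYS wholly above both other groups, but of the 6 genes only Emcn, its largest part, did. Emcn was at 45.2 to 46.2 FPKM in GQYS, 34.4 to 37.2 in IgAN and 37.7 to 42.8 in WT. T cell markers (5 of 6 in the table) summed to 1.19 to 2.10, 1.51 to 2.34 and 1.15 to 2.99 FPKM in GQYS, IgAN and WT, and B cell markers (5 of 6) to 7.93 to 11.6, 1.66 to 5.61 and 8.24 to 26.9 FPKM, with Cd79a and Ms4a1 listed at 0 in at least 1 library. The immediate-early list summed to 37.2 to 52.3 FPKM in GQYS, 61.0 to 95.7 in IgAN and 36.2 to 169 in WT, the last in WT replicate 1. Tubular injury markers summed to 333 to 515 FPKM in GQYS, 465 to 1209 in IgAN, with IgAN replicate 1 the highest, and 365 to 381 in WT. Most of this was Spp1, at 257 to 387 FPKM in GQYS, 300 to 883 in IgAN and 273 to 323 in WT. Clu made up most of the remainder, at 75.0 to 127 FPKM in GQYS, 163 to 244 in IgAN and 56.9 to 90.9 in WT. The part of these cell types and states in the levels of the NF-kB genes was not tested.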

How the data were processed

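Kidney RNA was extracted with TRIzol and made into VAHTS Universal V6 libraries, per the labels' protocols. The values are FPKM as the authors deposited them, with columns matched by library name. Of tools and builds, GRCm39, HISAT2, HTSeq, fastp, DESeq2 and R 3.2.0 appear in the submitters' processing notes, with no roles; the strand setting and annotation are not given in those sources. FPKM scales by gene length and library total, so abundant genes can shift others.

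Whole reads were recovered from the FPKM steps (tolerance 0.03 reads) for 26139 genes, with totals off the step sizes by -0.00749% at most. Chi-square per gene between replicates was 17.7 to 189, so none was a duplicate.

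The test was limma 3.58.1 in R 4.3.3 on log2(FPKM + 1) with an intensity trend (trend = TRUE), over genes with at least 1 FPKM in at least 3 libraries (11617), with Benjamini-Hochberg adjustment over all of them and a threshold of 0.05. It was tested on simulated data. log2 changes on this scale understate those of low genes. The 18 alternatives are in the closing section.

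Members, lists and tests were chosen with earlier results of these data known. Named were all members and the 5 genes most like the mean profile. For each pathway list, up to 4 genes past the threshold were named. Where none passed, the 2 with the smallest p in IgAN against WT were named. Other names are marked or belong to the marker lists, and Cfd, Egr1, Havcr1, Itgam, Slc34a1 and Upk1b describe libraries. Marker lists of dendritic cells, nephron tubule, podocytes, urothelium and adipocytes had 0 genes past the threshold. All 9 nephron tubule and all 5 podocyte markers were tested. Only 2 of 5 dendritic cell, 2 of 5 urothelial and 1 of 5 adipocyte markers were. Python 3.11.15, scipy 1.17.1 and matplotlib 3.10.9 were used.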

Additional observations from a re-analysis of the deposited data

How the results depend on the processing

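None of the 9 tested members passed under 17 of the 18 alternatives; Relb was run only without the filter, where it did not pass. With library quality weights 4 passed in IgAN against WT (Rela, Nfkb1, Nfkb2 and Bcl3, limma adjusted p = 0.0309, 0.0421, 0.0266 and 0.0458) and 1 in GQYS against IgAN (Nfkbie, 0.0238); these weights ran from 0.171 for WT replicate 1 to 3.2 for WT replicate 2, and of all genes 655 then passed in IgAN against WT instead of 41, 404 in GQYS against IgAN instead of 23, and 53 in GQYS against WT instead of 0. In IgAN against WT all genes passing numbered 21 without the filter, 68 with the replicate block, 11 with only the 2 groups compared, and 14 to 65 without 1 library. In GQYS against IgAN they numbered 15 with a pseudocount of 0.1, 13 without the filter, 43 with only the 2 groups, 63 without WT replicate 1 and IgAN replicate 1, and 6 to 54 without 1 library; the split was 4 higher and 19 lower, and 1 and 15 under quantile normalization. In GQYS against WT they numbered 0 to 1 without 1 library.

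None of these 9 turned its direction in IgAN against WT or GQYS against IgAN. In GQYS against WT, Birc3 turned to -0.0162 under quantile normalization, -0.134 with quality weights and -0.057 without WT and IgAN replicate 1, and ran from -0.057 to 0.17 without 1 library. Tnfaip3 turned to -0.0183, -0.171 and -0.151 and ran from -0.15 to 0.19. Nfkbiz, at -0.02 as reported, turned to 0.0144 with a pseudocount of 0.1, 0.11 with quality weights and 0.24 without both replicates 1, and ran from -0.29 to 0.24. The cause was not tested.

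Same-numbered libraries correlated by -0.36 to 0.58 in their deviations from group means, and 4 of 9 correlated best with their own number, so the numbers were not taken as pairs; the replicate block changed no member call. The 80 to 1470 reads per member and library and the 3 libraries per group limit the precision.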

Other observations

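Some NF-kB target and receptor genes outside the named set, chosen after their values were seen, had their highest levels in IgAN. Tnfrsf12a, the receptor gene of TWEAK, was at 12.8, 14.3 and 14.6 FPKM in GQYS, at 179, 25.7 and 53.5 FPKM in IgAN and at 24.3, 13.9 and 13.0 FPKM in WT. IgAN lay wholly above both groups, with the highest value in IgAN replicate 1, and neither comparison passed (limma adjusted p = 0.231 in IgAN against WT and 0.191 in GQYS against IgAN). Ccl7, a monocyte chemokine gene under the filter, was listed at 0, 0 and 0.0797 FPKM in GQYS, against 1.02, 0.655 and 0.970 FPKM in IgAN and 0.213, 0.0981 and 0 FPKM in WT. Sele, the endothelial adhesion gene E-selectin, also under the filter, had 0.0960, 0.0657 and 0.213 FPKM in GQYS, 0.227, 0.289 and 0.444 FPKM in IgAN, and 0.0282, 0.0454 and 0.0240 FPKM in WT. For both genes the IgAN libraries were above the other 6. The limma fit without the filter gave Ccl7 an adjusted p of 0.0499 in IgAN against WT and 0.0431 in GQYS against IgAN. For Sele these were 0.148 and 0.326. Both genes had low values, and both were picked after their values were seen.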
